A study of Rattus norvegicus with 6 samples.

Results

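B cell genes in the renal cortex were followed through 7 genes: Cd79a, Cd79b, Blk, Cd22, Cd37, Ms4a1 and Fcrla. They, and the lists compared below, were chosen with earlier results of these data known. The shares that rose are therefore only a description beside the share of all features. Probes were taken where the array's accession was a RefSeq transcript of 1 of the 7 genes. That gave 8 of the 61657 non-control probes, for 5 of the 7 genes. No probe matched Cd79a or Ms4a1, so these have no value here. Of the 5 measured genes, Cd37, Fcrla and Cd79b were well above background on all 6 arrays. Blk and Cd22 passed the detection filter only through the NDMA group, so a higher signal there was partly fixed by the filter.

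B cells recognise antigen with a membrane immunoglobulin that signals through the paired chains Cd79a and Cd79b. Src-family kinases such as Blk phosphorylate those chains, and Syk and Btk carry the signal on. Cd22, a lectin that binds sialic acid, dampens it, and the tetraspanin Cd37 and the channel-like protein Ms4a1 (CD20) sit in the same membrane. Normal renal cortex holds few B cells, while B cells can gather in chronically inflamed kidney.

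The tissue came from 6 male rats of the Sprague-Dawley strain, 5 weeks old when purchased. Controls (n = 3) were given water for 4 weeks. The other 3 rats were dosed over the same 4 weeks with 4 mg/kg/day of NDMA (n-nitrosodimethylamine), a compound that methylates DNA once enzymes have oxidised it. Cy3-labelled RNA of each animal was hybridised to its own 1-colour Agilent array, so the spread is between animals. Between 69.8% and 75% of the probes on an array were well above background. The 3 controls and NDMA animal 1 shared slide 1, and NDMA animals 2 and 3 were on slide 2, scanned separately. All 14 renal cortex markers were measured and 13 did not pass. Lrp2, the endocytic receptor megalin of the proximal tubule, fell by 0.57 on the log2 scale (± 0.10 SE, adjusted p = 0.0448). The median of the 14 was -0.21, against -0.05 over all features. At an unadjusted p under 0.05 in limma 6 were lower and 0 higher, while 5988 of the 31915 features tested were under it in either direction.

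Promoters are shown for 3 of the genes with higher signals after NDMA, because each holds the letters of a transcription factor site known from leukocyte genes. RefSeq's table (build GRCr8) held promoters for Cd37, Fcrla, Cd22 and Cd79a. The PU-box is bound by PU.1, the factor of myeloid and B cells that Spi1 encodes. Its core, AGAGGAA, was searched on both strands after the letters had been read. The 250 bases before the start of Cd37 (chr1:104860785-104861034, minus strand), Fcrla (chr13:85702827-85703076, minus strand) and Cd22 (chr1:95259731-95259980, minus strand) read as follows in the direction of the gene, with the core on either strand in capitals.
Cd37: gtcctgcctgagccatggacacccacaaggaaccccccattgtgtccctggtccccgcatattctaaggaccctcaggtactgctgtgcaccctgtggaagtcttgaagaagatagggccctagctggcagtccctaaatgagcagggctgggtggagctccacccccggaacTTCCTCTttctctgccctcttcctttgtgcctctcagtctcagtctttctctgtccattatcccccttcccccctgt
Fcrla: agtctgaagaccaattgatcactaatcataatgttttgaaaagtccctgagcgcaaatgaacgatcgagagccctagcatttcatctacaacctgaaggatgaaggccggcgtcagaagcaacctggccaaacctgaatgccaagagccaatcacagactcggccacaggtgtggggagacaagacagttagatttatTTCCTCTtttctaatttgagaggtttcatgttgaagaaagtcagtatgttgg
Cd22: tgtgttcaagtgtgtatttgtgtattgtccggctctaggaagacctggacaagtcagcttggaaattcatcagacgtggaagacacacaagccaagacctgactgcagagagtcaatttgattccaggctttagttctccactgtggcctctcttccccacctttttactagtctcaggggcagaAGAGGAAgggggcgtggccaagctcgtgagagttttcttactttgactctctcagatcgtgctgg

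Counted from the start, the core's first base lay at -77 in Cd37, -52 in Fcrla and -65 in Cd22. It was on the strand opposite to the gene in Cd37 and Fcrla and on the gene's own strand in Cd22. The Cd79a promoter held it once too. Of the 33469 promoters in the table, each of 300 bases, 10.5% held these letters on either strand. The octamer ATGCAAAT, a site of many immunoglobulin promoters, was in 0 of these 4 promoters and in 1.78% of all. Such matches describe the letters only.

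Cd37, Fcrla and Blk rose in the NDMA-treated rats, while Cd22 was higher without passing the test and Cd79b was at nearly the same mean in both groups. Cd37 was 1.81-fold higher (log2 difference 0.85 ± 0.10 SE, n = 3 per group) and Fcrla 1.75-fold (0.81 ± 0.12). Blk was at least 1.71-fold higher, as no control spot of it was well above background. This is 3 of the 5 measured genes at an adjusted p under 0.05, against 2.52% of the 31915 features tested that rose and 0.476% that fell. Of the 3 genes well above background on all 6 arrays, 2 rose. In whole cortex, more cells of a type and more RNA per cell cannot be told apart.

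**Figure D1:**
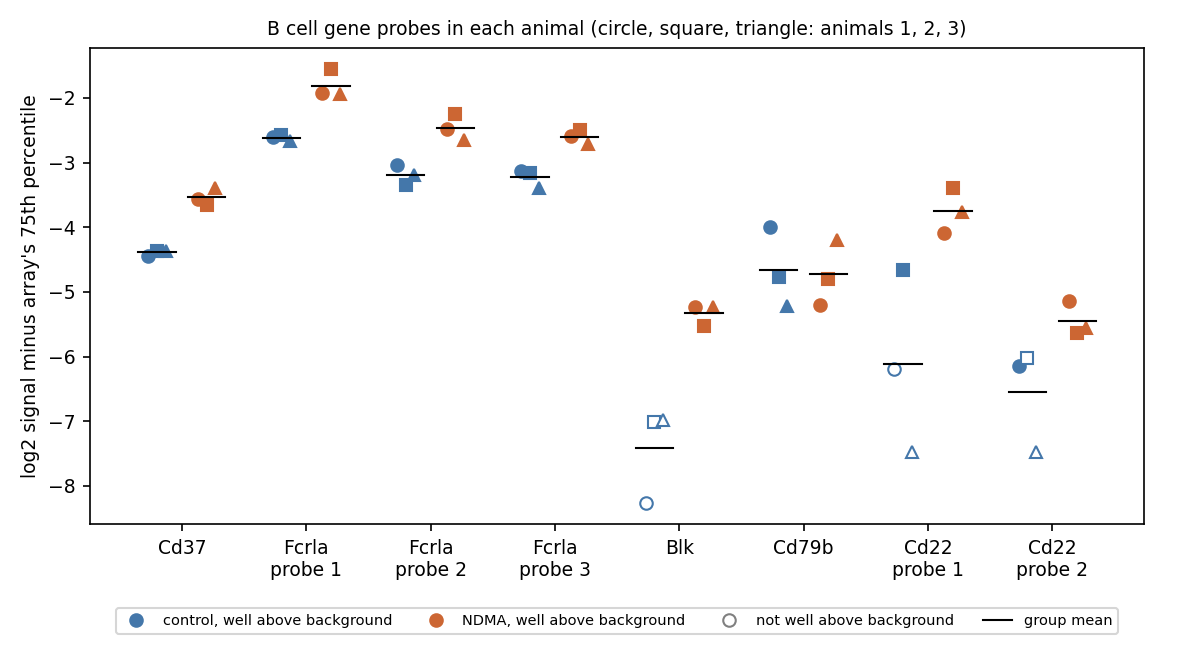
Log2 signal minus the array's 75th percentile (vertical axis) of the 8 probes in each of the 3 control and 3 NDMA animals; lines are group means and open symbols are spots not well above background. The groups separate for each probe except that of Cd79b, and the control spots of Blk are all open. Blk and Cd22 passed the filter only through the NDMA group, which partly fixed their separation. The 3 probes of Fcrla share a transcript and are not replicates. Of all features, 11.1% had groups that did not overlap with NDMA higher.

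Signals are given as log2 of the processed intensity minus that of the array's 75th percentile, so a value below 0 lies under the 75th percentile of that array's probes. For Cd79b, the immunoglobulin-associated chain that carries the receptor's signal into the cell, controls 1 to 3 read -3.99, -4.77 and -5.22. NDMA animals 1 to 3 read -5.20, -4.80 and -4.20. The groups overlapped, and animals of the same group differed by far more than the group means did. The difference was -0.08 ± 0.37 (adjusted p = 0.931), and its sign turned without control 1 (0.26) or without NDMA animal 1 (0.16).

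Blk is a Src-family kinase found mainly in B cells. Its probe read -8.26, -7.01 and -6.98 in the controls and -5.23, -5.53 and -5.23 in the NDMA animals. The unscaled intensities were 3.42 to 8.14 in controls and 28.1 to 34.6 after NDMA. The groups did not overlap, and each NDMA spot but no control spot was well above background. The fitted difference was 2.08 ± 0.35 (adjusted p = 0.0357). Because the control signal is only a bound, the least fold of 1.71 was taken against the lowest signal well above background on each control array.

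Cd22 was read by 2 probes of 1 transcript. The brighter read -6.19, -4.66 and -7.48 in the controls and -4.09, -3.39 and -3.76 in the NDMA animals, with only control 2 well above background among the controls. The dimmer read -6.14, -6.02 and -7.48 in the controls and -5.14, -5.64 and -5.56 after NDMA, with only control 1 well above background there. Neither probe's groups overlapped, but the controls were widely spread. The difference of the brighter probe was 2.36 ± 0.67 (adjusted p = 0.144). That of the dimmer was 2.14-fold (adjusted p over probes 0.222), so neither passed. Without control 2, whose brighter probe was the highest of the controls, the difference of the brighter probe was 3.08 and passed (adjusted p = 0.0396).

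Cd37, a tetraspanin of B cells that other leukocytes also carry, had the tightest controls of the 5 genes. It read -4.44, -4.37 and -4.36 in the controls and -3.57, -3.65 and -3.39 in the NDMA animals. Every NDMA animal lay above every control, by more than the range within either group. The adjusted p was 0.0114, and it was 0.0522 without control 1.

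Fcrla encodes an intracellular protein related to Fc receptors that binds immunoglobulin inside B cells. Its brightest probe read -2.61, -2.57 and -2.66 in the controls and -1.92, -1.56 and -1.94 in the NDMA animals (adjusted p = 0.0265). The second read -3.03, -3.34 and -3.19 in the controls against -2.48, -2.25 and -2.65. The third read -3.13, -3.16 and -3.39 against -2.59, -2.49 and -2.72. On each of the 3 probes NDMA animal 2 was the highest and the groups did not overlap. The probe differences were 0.81 ± 0.12, 0.73 ± 0.14 and 0.62 ± 0.11, and each passed over all probes (adjusted p = 0.0262, 0.0481 and 0.0400), where 2.5% of the 43118 probes rose. Probes of 1 transcript share their RNA and are not replicates.

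Of the 3 genes well above background on all 6 arrays, Cd37 and Fcrla had groups that did not overlap, with NDMA higher, as did 11.1% of all features. Blk and Cd22 did not overlap either, but their passing the filter through the NDMA group partly fixed this. The Fcrla call was lost without control 1, 2 or 3 or NDMA animal 3 (adjusted p = 0.0964, 0.0787, 0.0832 and 0.0610). The Blk call was lost in each fit without 1 animal except that without control 1 (adjusted p up to 0.117). The number of B cell genes that rose was thus 1 without control 1 (Blk), and 1 without control 3 or NDMA animal 3 (Cd37).

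With the slide as a fixed block the differences rest on NDMA animal 1 and the 3 controls, and 0 of the 5 genes passed in limma. Cd37, Fcrla and Blk had an unadjusted p under 0.05, as did 3194 of the 31915 features in either direction. Of these 3 genes Blk had passed the filter only through the NDMA group. Over all features 59 then rose and 8 fell. The log2 differences were then 0.82 for Cd37, 0.70 for Fcrla, 2.19 for Blk, 2.01 for Cd22 and -0.55 for Cd79b (adjusted p = 0.132, 0.246, 0.238, 0.624 and 0.842). On slide 1 alone they were the same, with adjusted p from 0.132 to 0.785, and no feature of the whole table passed there (3502 had an unadjusted p under 0.05). With the slide as a random block (estimated correlation within slides -0.0373) Cd37, Fcrla and Blk passed (adjusted p = 0.00986, 0.0228 and 0.0315). Slide 2 held no control, so no value within it can be given.

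Changing the input signal, the background method and the offset together changed the size of the dim members' differences. With normexp correction of the median spot signal and an added offset of 50, the difference was 0.60 for Fcrla (adjusted p = 0.0358), 0.26 for Cd37 (0.107), 0.17 for Blk (0.316), 0.48 for Cd22 (0.140) and -0.19 for Cd79b (0.410). Only Fcrla passed. The processed Cd37 intensities were 48.1 to 50 in controls and 89 to 124 after NDMA.

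**Figure D2:**
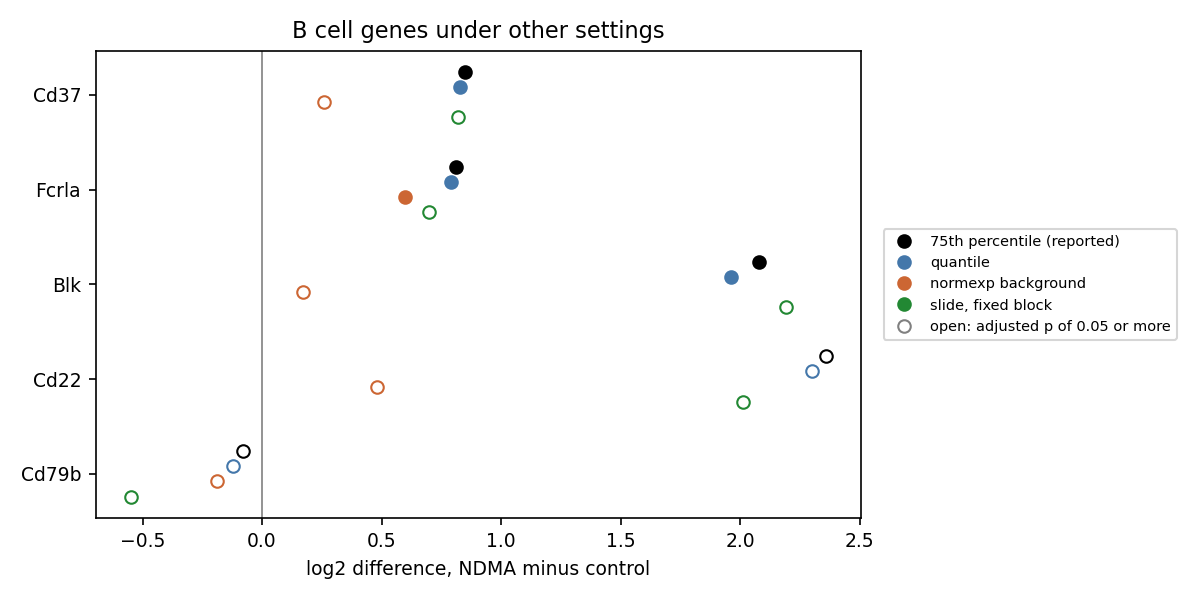
Log2 difference, NDMA minus control (horizontal axis), of the 5 measured genes under the reported scaling, quantile normalisation, normexp background correction and the slide as a fixed block; filled points have an adjusted p under 0.05. The normexp setting, which also changes the input signal and the offset, moves Cd37 from 0.85 to 0.26 and Blk from 2.08 to 0.17. The fixed slide block leaves no filled point.

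Several genes that act with the B cell receptor rose. Among 19 measured signalling and coreceptor genes there were 8 that rose (42.1%), 11 that did not pass and 0 that fell, where 2.52% of all features rose. All 19 were well above background on all 6 arrays. Their median log2 difference was 0.72, against -0.05 over all features. Dapp1, an adaptor that binds phosphoinositides at the membrane, rose by 1.48 ± 0.15 (adjusted p = 0.00866). The lipid phosphatase Inpp5d, which restrains that signal, rose by 0.81 ± 0.10 (0.0129), and the kinase Btk by 1.46 ± 0.20 (0.0208). The inhibitory Fc receptor Fcgr2b, which macrophages also carry, rose by 1.32 ± 0.18 (0.0205). Whether the rises of these genes came from B cells was not tested.

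The B cell transcription factors Pax5 and Ebf1, used as markers, did not pass. Pax5, the factor that holds B cell identity, read 0.23, -0.24 and 0.29 in the controls and -0.06, -0.40 and -0.43 in the NDMA animals. Its groups overlapped, with a difference of -0.39 ± 0.18 (adjusted p = 0.293). Pax5 had 1 probe, with a control mean of 0.09, against -2.62 for Fcrla, the brightest of the 5 measured B cell genes. Whether this probe reports B cells was not tested. Ebf1, a factor of early B cells that other tissues also express, differed by -0.27 ± 0.11 (0.277). The complement receptor gene Cr2 had 2 probes, with 0 of 6 spots well above background in each group.

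Of the B cell transcription factors 15 were measured, and their median difference was -0.03. The 2 that rose (13.3%, against 2.52% of all features; 0 fell) were Irf8 (1.14 ± 0.11, adjusted p = 0.00743) and Spi1 (1.01 ± 0.14, 0.0196), both of which also act in macrophages and dendritic cells. Of 8 plasma cell genes 1 rose (12.5%, against 2.52%), Derl3, a component of protein disposal in the endoplasmic reticulum (1.43 ± 0.16, 0.0114), and the median was 0.18. The 9 immunoglobulin entries of that list had no matching symbol in the gene table, so antibody transcripts have no value here.

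In the list of B cell survival, homing and help 7 of 21 measured genes rose (33.3%, against 2.52% of all features), 0 fell and the median was 0.83. Of the 19 well above background on all 6 arrays 6 rose; the other 2 passed the filter only through the NDMA group. Ccl19, a chemokine that draws lymphocytes and dendritic cells through the receptor Ccr7, rose 4.55-fold (2.19 ± 0.22, adjusted p = 0.00903). Cd27, a receptor of memory B cells and T cells, rose 3.46-fold (1.79 ± 0.14, 0.00582). The activation antigen Cd69 and the interleukin receptor Il21r rose by 1.54 ± 0.18 (0.0134) and 1.45 ± 0.18 (0.0137), and both are carried by T cells too.

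In the list of other B lineage genes 4 of 16 rose (25%, against 2.52%), 0 fell and the median was 0.56. Of the 14 well above background on all 6 arrays 3 rose. Tlr10, the other gene that rose, entered the test only through the NDMA group, where it is high. Ly86, the partner of the receptor Cd180, rose by 1.37 ± 0.11 (adjusted p = 0.00582). Ciita, the regulator of MHC class II genes, rose by 1.24 ± 0.14 (0.0114). The tetraspanin Cd53, which is also in the list of pan-leukocyte markers, rose by 1.34 ± 0.16 (0.0136). The Toll-like receptor Tlr10 was at least 3.54-fold higher (0.0176), as none of its control spots was well above background. Of the 16 genes 10 were higher after NDMA, and 12 did not pass. Whether the rises came from B cells was not tested.

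The counts of these lists, like that of the whole table, changed with single animals and with the slide. Without control 1, 2 and 3 and NDMA animal 1, 2 and 3 in turn, 4, 5, 4, 3, 1 and 1 signalling genes rose. The survival list gave 3, 5, 6, 4, 3 and 3, the transcription factors 1, 1, 1, 2, 2 and 2, and the other B lineage genes 3, 4, 4, 4, 2 and 3. In the plasma cell list 2 genes rose without NDMA animal 1 and 1 in each of the other fits. Over all features the number that rose went from 805 to 336, 488, 463, 617, 422 and 320 in the same fits. With the slide as a fixed block 0 genes of these 5 lists passed in limma. Higher at an unadjusted p under 0.05 were 9 of 19 signalling genes, 2 of 15 transcription factors, 2 of 8 plasma cell, 11 of 21 survival and 5 of 16 other genes, while 3194 of the 31915 features were under it in either direction. The medians were then 0.60, -0.02, 0.05, 0.85 and 0.56 in that order.

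**Figure D3:**
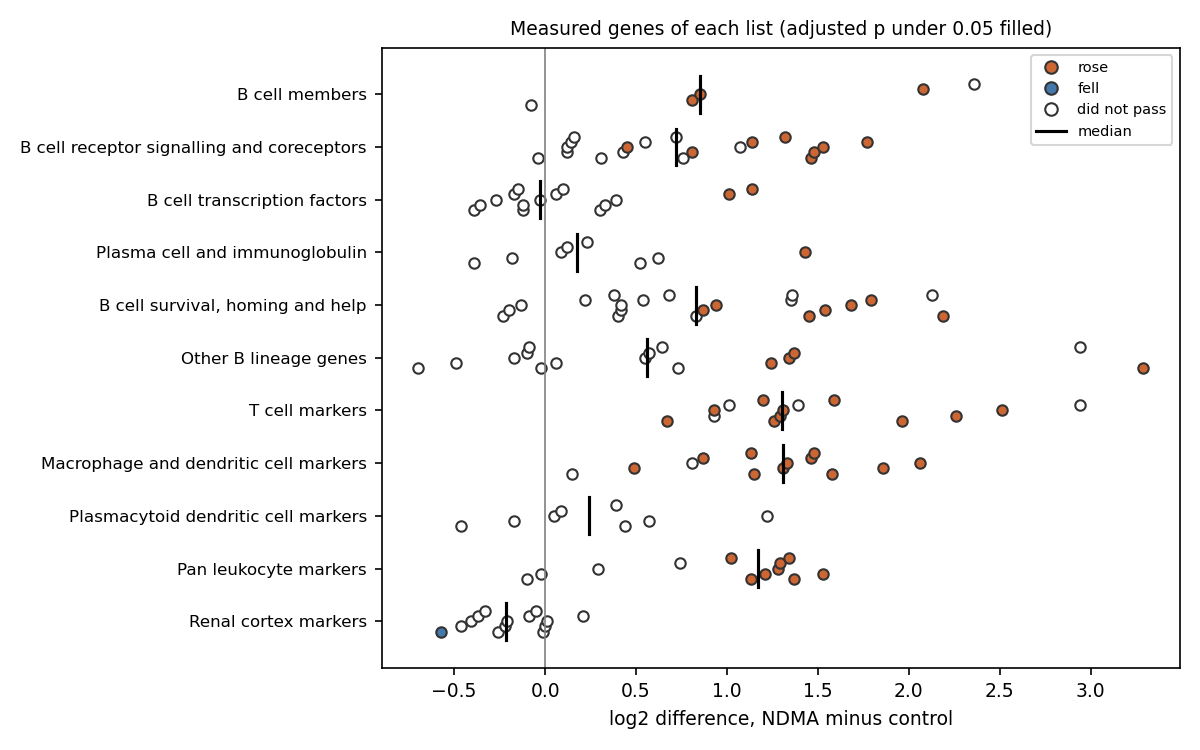
Log2 difference, NDMA minus control (horizontal axis), of every measured gene in each list; filled points passed at an adjusted p under 0.05 and black bars are medians. Medians are 0.85 for the B cell genes, 0.72 for signalling, -0.03 for B cell transcription factors and 0.18 for plasma cell genes. They are 0.83 for the survival list and 0.56 for other B lineage genes. T cell and macrophage markers have medians of 1.30 and 1.31.

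Many markers of T cells, macrophages and leukocytes in general rose, as Cd37, Fcrla and Blk did. Cd79b, Pax5 and Ebf1 did not pass. Of 14 measured T cell markers 10 rose and 0 fell (median 1.30), of 13 macrophage and dendritic cell markers 11 rose and 0 fell (1.31), and of 12 pan-leukocyte markers 8 rose and 0 fell (1.17). These are 71.4%, 84.6% and 66.7%, against 2.52% of all features. Of those well above background on all 6 arrays, 9 of 12, 10 of 12 and 8 of 12 rose. The T cell receptor chains Cd247, Cd3g and Cd3d and the kinase Zap70 rose by 1.96 ± 0.13, 2.26 ± 0.21, 1.29 ± 0.12 and 1.20 ± 0.11. The lectins Clec10a and Clec4a3, the lysosomal Cd68 and the complement chain C1qb rose by 1.86 ± 0.11, 1.15 ± 0.11, 1.48 ± 0.14 and 1.33 ± 0.12. The phosphatase Ptprc (CD45), the actin-binding proteins Coro1a and Lcp1 and the GTPase Rac2 rose by 1.29 ± 0.12, 1.37 ± 0.11, 1.28 ± 0.12 and 1.21 ± 0.13. Adjusted p for these 12 genes ran from 0.00293 to 0.0114. Without each animal in the same order the counts were 6, 10, 8, 7, 5 and 6 for T cells, 6, 7, 8, 10, 7 and 7 for macrophages and 5, 7, 7, 8, 5 and 3 for all leukocytes. Of the 31915 features, 336, 488, 463, 617, 422 and 320 rose in these fits. With the slide as a fixed block 0, 1 and 0 passed in limma, while 59 of the 31915 features rose. The medians were then 1.25, 1.06 and 1.07. At an unadjusted p under 0.05 in that fit 14, 11 and 8 were higher, while 3194 features were under it in either direction. Of 8 plasmacytoid dendritic cell markers 0 passed in limma without a block (median 0.24). There 2 had an unadjusted p under 0.05, as did 5988 of the 31915 features in either direction. The smallest p values were those of Lair1 (1.22 ± 0.36, adjusted p = 0.160) and Tlr7 (0.57 ± 0.18, 0.169). The lists share genes, among them Cd53, Cd48, Cd52 and Vav1 in the pan-leukocyte and B lineage lists. The part of these other cells in the rises of Cd37, Fcrla and Blk was not tested.

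The signals of a list were also summed on each array, in multiples of the 75th percentile. The 5 B cell genes summed to 0.247 to 0.301 in the controls and 0.461 to 0.571 after NDMA. T cell markers summed to 3.26 to 4.06 against 8.60 to 10.0, and macrophage and dendritic cell markers to 22.4 to 27.4 against 56.8 to 67.4. Pan-leukocyte markers summed to 31.0 to 41.0 against 72.2 to 79.6. In these 4 lists the groups did not overlap, and in the plasmacytoid list they did, at 8.86 to 10.1 and 9.47 to 10.6. The sums repeat the signals given above, and the brightest genes weigh most in them, such as Fcrla in the B cell sum. That sum also holds Blk and Cd22, which passed the filter only through the NDMA group. The T cell and macrophage sums hold 2 and 1 such genes. Of single features, 11.1% had groups that did not overlap with NDMA higher. Among the other B lineage lists the transcription factors (17.7 to 28.0 against 17.7 to 24.9) and plasma cell genes (17.0 to 18.6 against 18.0 to 21.3) overlapped. The signalling (28.0 to 29.6 against 35.9 to 37.8), survival (50.4 to 52.7 against 53.6 to 58.1) and other B lineage lists (9 to 9.36 against 12.6 to 13.8) did not. At least 1 probe of each of Cd3d, Cd68, Ptprc, Cd37, Fcrla, Cd79b and Pax5 was well above background on all 6 arrays. Cr2, also a B cell marker, was not on any.

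**Figure D4:**
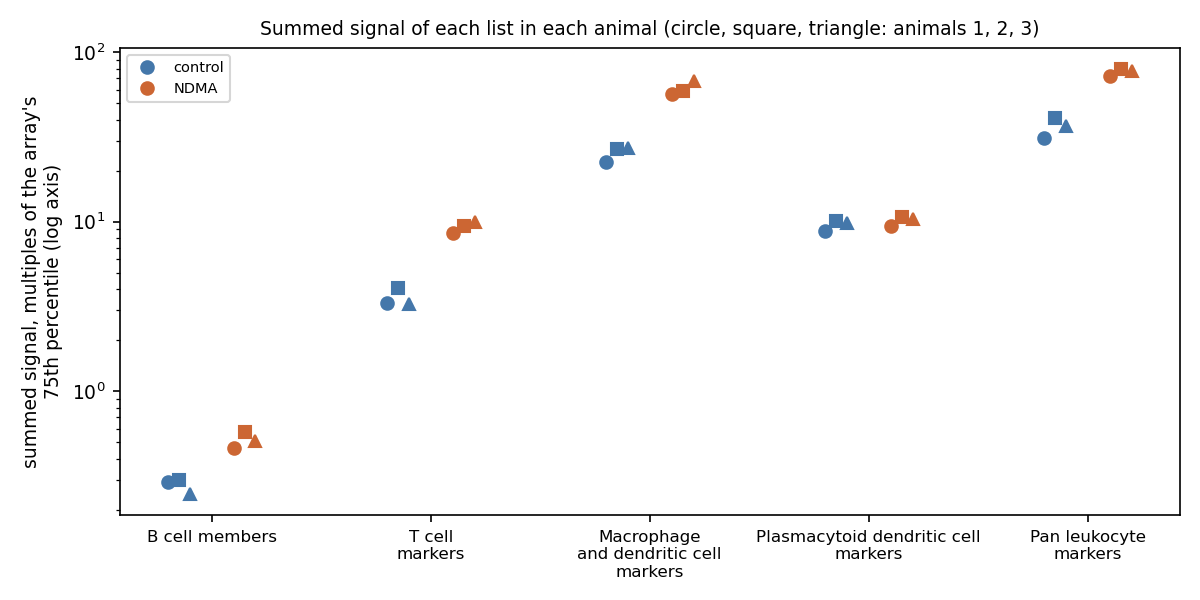
Summed signal of each list in multiples of the array's 75th percentile (vertical log axis) in the 3 control and 3 NDMA animals, with 1 symbol per animal. The NDMA animals lie above the controls for the B cell, T cell, macrophage and pan-leukocyte lists, and the groups overlap for the plasmacytoid list. The B cell sum includes Blk and Cd22, which passed the filter only through the NDMA group.

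The genes whose signals followed a B cell gene most closely over the 6 arrays were sought among 12168 other named genes, by Pearson's r of the normalised log2 signals. For Cd37 these were Ctsz (r = 0.9999) and Acod1 (0.9962), and for Fcrla Cdc45 (0.9990) and Gmnn (0.9989). All 4 passed the test, with differences of 1.35, 4.41, 1.11 and 0.95. For Cd79b they were Rnase13 (0.9946) and Shisa3 (0.9854), which differed between the groups by -0.07 and 0.07 and did not pass. The 6 points share arrays, slides and the 2 groups, and the best of so many genes has a high r with so few points, so these values are a description.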

How the data were processed

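Per the file headers, the authors extracted spots with Agilent Feature Extraction 10.7.1.1 (10.7 per the submitters' processing notes). The deposited processed intensity is background-subtracted and spatially detrended within its array. The authors' deposited value table holds a ratio that matched the processed intensity over the array's 75th percentile (largest log2 difference 0.00174 over values above 0.1). Other flags, deposited per the file headers, mark outliers and background.

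Processed intensities became log2 minus the array's 75th percentile (log2 scale), from the deposited files; outlier spots were missing (0 for the members). Probes well above background on all 3 arrays of a group were kept (43118), and the brightest stood for a gene (31915 features). Names came from RefSeq accessions of GRCr8; 27348 of 29123 NM probes matched. The two-sided test was that of limma 3.58.1 (R 4.3.3), whose prior added 2.36 degrees of freedom to the 4 of the residuals. P-values were adjusted by Benjamini-Hochberg over all features, with a threshold of 0.05. An exact permutation test of 3 against 3 cannot go below p = 0.1, so none is given. The number of arrays limits the precision.

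Members and lists were chosen with earlier results of these data known. Named are the members with every probe, up to 4 passing genes of each list by smallest p (2 if none passed), the markers Pax5, Ebf1 and Cr2 (1 further marker is not reported here), and the 2 genes most correlated with a member. Alternatives were 22 settings, 2 of them added after the data were seen. The replicate numbers did not pair the animals (correlations of deviations 0.039, -0.048 and 0.026). No protein sequences were used here.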

Additional observations from a re-analysis of the deposited data

How the results depend on the processing

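The count of B cell genes that rose was 3 as reported and stayed within 1.5-fold in the other settings not named here. It was 1 with normexp and the 75th percentile, 1 with normexp and quantile normalisation, 1 with no filter on dim probes (Cd37), and 0 with the slide as a fixed block, on slide 1 alone and with the replicate block (adjusted p = 0.0532, 0.0694 and 0.0958 for Cd37, Fcrla and Blk); without 1 animal it ranged from 1 to 2. The replicate block moved the calls over all features from 805 higher and 152 lower to 337 and 14. The median over the 5 genes, 0.85 as reported, was 0.26 and 0.37 with the normexp settings, which change the input signal, the background method and the offset together, and otherwise lay within 0.33 of it. Cd79b changed sign in 2 fits without 1 animal, over which it ranged from -0.36 to 0.26. Over 22 alternatives Cd37 kept its call in 16 and Fcrla in 14, and over 21 Blk kept it in 10; the filter requiring signal on all 6 arrays gave no value for Blk or for Cd22's brighter probe. With normexp and the 75th percentile 67% of all calls were higher, against 84.1% as reported, and with trended and robust variance 76.6%, with no filter 94.6% and with the replicate block 96%. Normexp on the mean signal was planned and not run, since the files used here give the median signal. Blk and Cd22 sat near background in controls, which limits their fold. The causes of these changes were not tested.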

Other observations

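Some B lineage genes were lower in NDMA-treated rats without passing, and were picked out after their values were seen. Fcmr, the receptor for immunoglobulin M, read 0.13, -0.47 and -0.00 in controls 1 to 3 and -0.70, -0.81 and -0.95 in NDMA animals 1 to 3. Its difference was -0.70 ± 0.17 (adjusted p = 0.101). Fcer2, the low-affinity receptor for immunoglobulin E, differed by -0.49 ± 0.19 (0.234). Cd72, an inhibitory coreceptor of B cells, differed the other way, by 1.07 ± 0.22 (0.0644). Each NDMA animal lay above each control, as for 11.1% of all features. Cxcl13, the chemokine that draws B cells into follicles, overlapped between the groups, at 0.35, 1.35 and -0.70 in the controls and 0.44, 0.34 and 1.84 after NDMA (0.54 ± 0.61, 0.659).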
